A study of Homo sapiens with 6 samples.

Results

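The integrin and laminin genes were examined as a set of 35 genes, 25 integrin subunits and 10 laminin chains, among the 57445 genes of the deposited expression table. The members were chosen by gene symbol alone, and each of the 35 symbols matched 1 gene of the table. The list does not hold every chain of these families, and genes outside it were not analysed here. Expression was measured by RNA-Seq in MDA-MB-231, an established human breast cancer cell line, in 2 conditions with 3 libraries each. All cells were infected with a pGIPZ lentiviral vector and selected with puromycin at 2 µg/ml. The control cells (shCTL) received a control vector, described in the labels both as a non-sense shRNA and as an empty vector, and the other cells (shRor1) received a vector with an shRNA against ROR1, a receptor of non-canonical Wnt signaling. The table header of the control columns also reads DMSO, a solvent that the sample labels do not mention. Each condition was 1 stable line made with 1 vector, and no second shRNA was measured. The comparison asks which of these adhesion receptors and basement membrane chains differed between cells with and without the knockdown vector. Nothing in the labels says whether the 3 libraries of a condition came from separate cultures, so that p-values measure only the spread between these libraries.

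Integrins are receptors made of 1 alpha and 1 beta subunit that span the cell membrane and connect the extracellular matrix to the actin cytoskeleton. Laminins are secreted trimers of an alpha, a beta and a gamma chain that form the basement membrane and are themselves bound by integrins. Carcinoma cells use both for attachment, migration and invasion through the basement membrane, and the alpha and beta subunits together decide which ligand a receptor binds.

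All values are TPM, a measure of transcript abundance that corrects for the length of each gene and sets every library to the same total, so that levels can be compared between genes. Sequencing depth cannot be read from TPM. The number of genes at 1 TPM or more was 16036 to 16597 in shCTL and 16317 to 17033 in shRor1. The columns carry no replicate number, and libraries are named by their place in the table as the first, the second and the third. The third listed library was the highest of both conditions for 33.6% of all 16554 genes tested. Results were therefore also computed without the third library of both conditions. This share was not computed for the first or second libraries. By limma, 2.85% of genes had an unadjusted p under 0.05 with all libraries and 10.4% without the first shRor1 library. It was 1.97% without the third shRor1 library and 2.6% without the third library of both conditions. The targeted gene ROR1 was at 15.4, 13.5 and 20.6 TPM in shCTL, against 9.34, 11.9 and 14.9 TPM in shRor1. Its groups overlapped, the mean in shRor1 was below the control mean, and the log2 difference was -0.43 (SE 0.20, limma, unadjusted p = 0.0649, adjusted p = 0.984, exact permutation p = 0.2). The first listed shRor1 library had the lowest ROR1 level of all 6. These are mRNA levels, whereas the study showed the knockdown on the protein by western blot. The line markers VIM (2399 to 2920 TPM) and CD44 (359 to 534 TPM) were high, ESR1 and PGR did not exceed 0.21 TPM, CDH1 lay between 0.80 and 1.47 TPM, EPCAM between 12.6 and 15.8 TPM and ERBB2 between 26.6 and 34.9 TPM.

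The 35 genes covered a wide range of levels. Of these, 24 (17 integrins and 7 laminins) reached 1 TPM in at least 3 libraries and were tested, 20 of them with at least 1 TPM in all 6 libraries. The other 4, ITGA7, ITGA10, ITGB3 and ITGB6, were below 1 TPM in some library. The 11 genes that were not tested were ITGA2B, ITGA4, ITGA8, ITGA9, ITGA11, ITGAM, ITGAX, ITGB8, LAMA1, LAMA2 and LAMC3, and none of them exceeded 1.76 TPM, a value of LAMA2. ITGB1 was the most abundant member with a mean of 614.9 ± 15.7 TPM in shCTL (SD, n = 3), followed by ITGA3 with 313.0 ± 41.4 TPM and LAMA5 with 198.5 ± 101 TPM. The SD of LAMA5 was large because the third shCTL library was 2.24 times the mean of the other two, yet ITGB1, ITGA3 and LAMA5 ranked in this order in all 6 libraries. The summed level of the 25 integrins was 1264 to 1489 TPM in shCTL, against 1325 to 1771 TPM in shRor1, and that of the 10 laminins 497.3 to 817.4 TPM and 584.8 to 893.7 TPM. Both sums overlapped between the conditions.

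**Figure D1:**
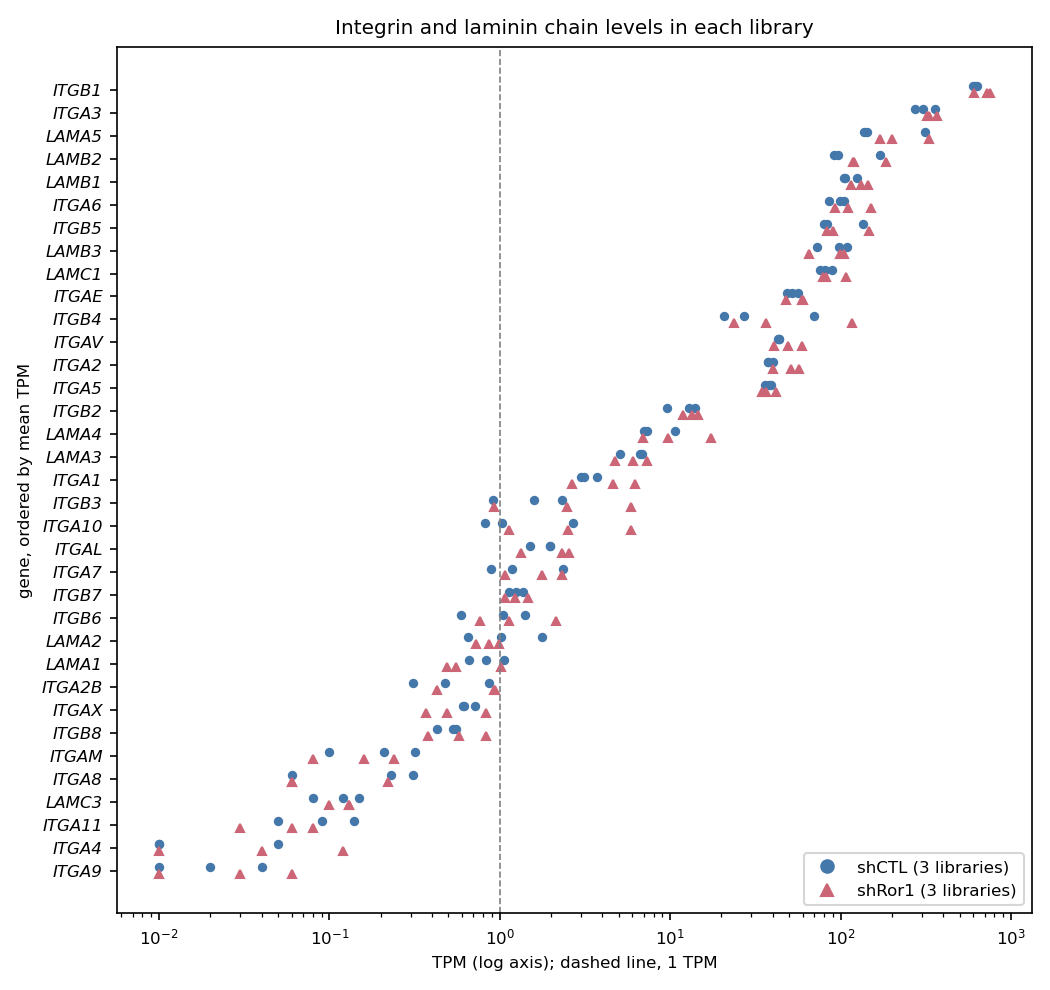
TPM of the 35 integrin and laminin genes on a log axis, ordered by mean level, with a blue circle for each of the 3 shCTL libraries and a red triangle for each of the 3 shRor1 libraries. The dashed line marks 1 TPM, ITGB1 lies at the top with 600.1 to 758.3 TPM, and circles and triangles interleave for nearly every gene.

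No integrin or laminin passed the test at an adjusted p of 0.05, and neither did any other gene: 0% of the 16554 genes tested were called by limma after Benjamini-Hochberg adjustment. The study's own test, on counts rather than TPM, reported 2 genes for these conditions, neither of them an integrin or a laminin. Adjusted p-values of the 24 tested members by limma lay between 0.984 and 0.997. At an unadjusted p of 0.05, 1 member (ITGA2) was higher in shRor1 and 0 were lower, against 2.31% of all genes tested that were higher and 0.544% that were lower. ITGA2 was also the only tested member whose 3 shRor1 libraries all lay above its 3 shCTL libraries, a pattern found for 6.48% of all genes tested, while the opposite pattern held for 0 members and 1.3% of all genes. The log2 difference was above 0 for 22 of the 24 tested members (91.7%) and for 67% of all genes tested. With quantile normalization as well as with median ratio scaling it was above 0 for 20 of the 24. The 67% does not apply to these 2 settings, where the median of all genes was 0.001 and -0.02 and their share above 0 was not computed. The median log2 difference was 0.17 for the 17 tested integrins and 0.21 for the 7 tested laminins, against 0.05 for all genes tested. With median ratio scaling these medians were 0.10 and 0.13, and that of all genes was -0.02. These counts and medians describe members that passed a filter on level and carry no test. All differences are on the log2(TPM + 1) scale, which understates the change of genes with low levels, and in RNA from whole cultures fewer cells of a kind and less RNA per cell cannot be told apart.

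**Figure D2:**
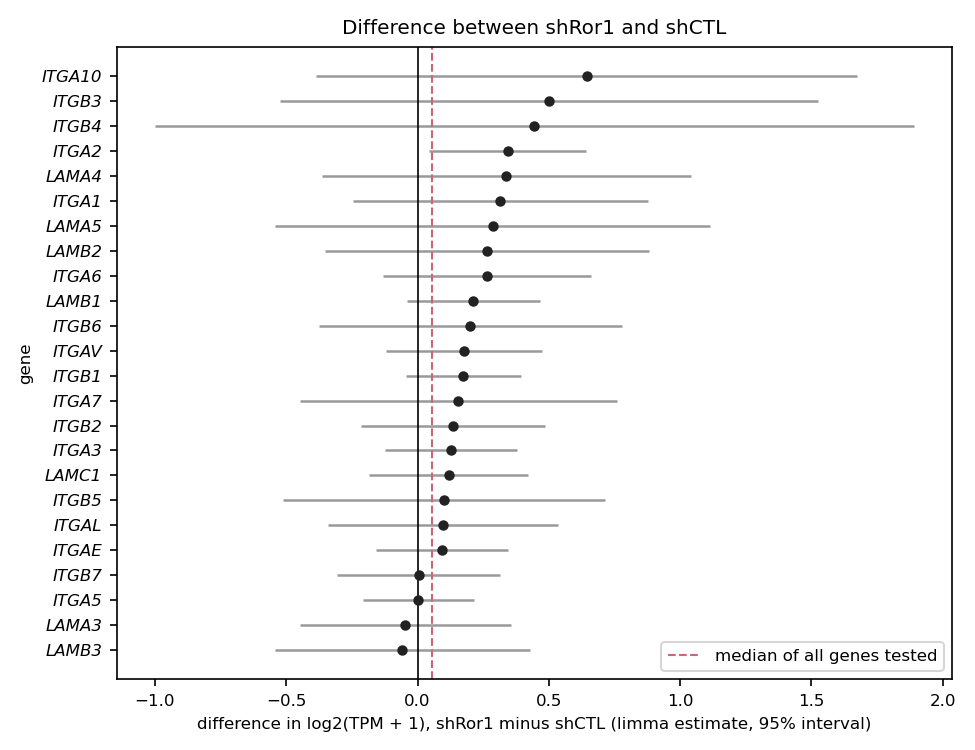
Difference in log2(TPM + 1), shRor1 minus shCTL, of the 24 tested integrin and laminin genes with its 95% interval from limma, ordered by size. The interval of ITGA2 (0.04 to 0.64) lies above 0 and those of the other 23 genes include 0, while the red dashed line marks the median of all genes tested (0.05).

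Of the 4 collagen-binding alpha subunits, ITGA2 stood first by p. ITGA2, whose product pairs with ITGB1 to form a major collagen receptor of epithelial cells, lies on the plus strand at chr5:52285170-52390609 (GRCh37). Its level was 40.02, 37.36 and 37.66 TPM in shCTL, against 40.05, 50.88 and 57.33 TPM in shRor1. The groups did not overlap, but the first shRor1 library lay level with the highest control, and the separation came from the other two. The log2 difference was 0.34 (SE 0.13, 95% interval 0.04 to 0.64, limma, unadjusted p = 0.0298, adjusted p = 0.984), and the exact permutation p was 0.1, the smallest that 3 against 3 libraries can give. The unadjusted p did not stay under 0.05 when some libraries were left out: it was 0.0743 without the second and 0.0663 without the third shCTL library, 0.0791 without the second and 0.0897 without the third shRor1 library, and 0.155 without the third library of both conditions, where the log2 difference was 0.22.

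ITGA1, the neighbour of ITGA2 on the same strand at chr5:52083750-52255039 and likewise a collagen receptor subunit, was at 2.98, 3.11 and 3.71 TPM in shCTL, against 2.66, 4.59 and 6.26 TPM in shRor1. Its first shRor1 library was the lowest of all 6 and its other two were the highest, and the log2 difference was 0.32 (SE 0.24, 95% interval -0.25 to 0.88, limma, unadjusted p = 0.230, adjusted p = 0.984). Exons of ITGA1 overlap on the same strand with those of PELO, at 17.8 to 20.4 TPM, and of the pseudogene RPL17P21, listed at 0. The sum, with a log2 difference of 0.07, consisted mostly of PELO and says little about ITGA1. ITGA10, a collagen receptor subunit best known from cartilage, was low, at 0.82, 1.03 and 2.68 TPM in shCTL, against 1.13, 2.51 and 5.93 TPM in shRor1. Its highest library was the third in both conditions and the groups overlapped, with a log2 difference of 0.64 (SE 0.44, 95% interval -0.39 to 1.67, limma, unadjusted p = 0.185, adjusted p = 0.984). This difference was 0.20 without the third shRor1 library and 1.05 without the first. The fourth subunit of this class, ITGA11, did not exceed 0.14 TPM.

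The laminin-binding alpha subunits ITGA3 and ITGA6 were abundant, whereas ITGA7, known from muscle, was near the detection filter. ITGA3 was at 275.4, 306.3 and 357.4 TPM in shCTL, against 328.8, 323.2 and 369.7 TPM in shRor1, and the 2 groups overlapped with a log2 difference of 0.13 (SE 0.11, 95% interval -0.12 to 0.38, limma, unadjusted p = 0.274, adjusted p = 0.984). ITGA6, which pairs with either ITGB1 or ITGB4, was at 98.7, 85.8 and 105.3 TPM in shCTL, against 92.8, 111.2 and 150.2 TPM in shRor1. Its first shRor1 library lay within the control range and the other two above it, and the log2 difference was 0.26 (SE 0.17, 95% interval -0.13 to 0.66, limma, unadjusted p = 0.162, adjusted p = 0.984). ITGA7 was at 1.18, 0.89 and 2.36 TPM in shCTL, against 1.77, 1.08 and 2.32 TPM in shRor1, which overlapped throughout. ITGB4, the subunit that joins ITGA6 in hemidesmosomes, showed the widest spread of the abundant members. It was at 20.8, 27.1 and 69.7 TPM in shCTL, against 23.8, 36.4 and 116.6 TPM in shRor1. The third library was 2.91 times the mean of the other two in shCTL and 3.88 times in shRor1, a larger step than that between the conditions, where the log2 difference was 0.44 (SE 0.62, 95% interval -1.001 to 1.891). Without the third shRor1 library the difference was -0.21 and without the third shCTL library it was 0.95.

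Among subunits that bind the RGD peptide motif of fibronectin and related ligands, ITGA5, the classical fibronectin receptor subunit, was at 35.9, 38.9 and 37.9 TPM in shCTL, against 34.8, 36.8 and 41.7 TPM in shRor1. Its groups spanned nearly the same range, with a log2 difference of 0.00 (95% interval -0.21 to 0.21), which turned to -0.04 with quantile normalization and to -0.08 with median ratio scaling. ITGAV, which pairs with 5 beta subunits, was at 43.6, 42.9 and 43.6 TPM in shCTL, the narrowest control spread of the abundant members, and at 40.8, 49.4 and 59.1 TPM in shRor1. The first shRor1 library lay below all controls and the other two above them, with a log2 difference of 0.18 (SE 0.13, 95% interval -0.12 to 0.48, limma, unadjusted p = 0.202, adjusted p = 0.984). Its partner ITGB5, the vitronectin receptor subunit, was at 79.7, 83.3 and 135.3 TPM in shCTL, against 83.3, 90.5 and 147.3 TPM in shRor1. The third library was the high one in both conditions, and the log2 difference was 0.10 (SE 0.26, 95% interval -0.51 to 0.71, limma, unadjusted p = 0.711, adjusted p = 0.987). ITGB3, the beta subunit of the vitronectin receptor of osteoclasts and of the fibrinogen receptor of platelets, was at 0.91, 1.58 and 2.32 TPM in shCTL, against 0.92, 2.48 and 5.93 TPM in shRor1. ITGB6, an epithelial partner of ITGAV that activates latent TGF-beta, was at 1.04, 0.59 and 1.41 TPM in shCTL, against 1.14, 0.77 and 2.13 TPM in shRor1. Both overlapped between the conditions, with the highest value in the third library of each condition. Exons of ITGB3 overlap on the same strand with those of a gene without a symbol, and the log2 difference of 0.50 for ITGB3 was 0.49 with the level of that gene added. It was 0.03 without the third shRor1 library and 0.95 without the first.

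ITGB1, the common partner of most alpha subunits in these cells, lies on the minus strand at chr10:33176201-33294720. Its level was 600.1, 631.4 and 613.4 TPM in shCTL, against 607.7, 758.3 and 724.9 TPM in shRor1. The first shRor1 library lay within the control range and the other two above it, and the log2 difference was 0.17 (SE 0.09, 95% interval -0.04 to 0.39, limma, unadjusted p = 0.102, adjusted p = 0.984). The table also holds ITGB1P1, a processed pseudogene of 609 bases on chromosome 19 that was copied from the spliced message of ITGB1 and matched exons 13 to 16 of its 16 exons at 609 of 609 positions. All 560 words of 50 bases, the read length, in ITGB1P1 also occurred in ITGB1 transcripts, so that reads from this stretch fit both genes equally. A stretch of 60 bases is shown because it crosses an exon junction of ITGB1 and is identical in both genes; capitals mark the exon 15 side. It lies at chr10:33199151-33199180 (exon 14) and chr10:33197433-33197462 (exon 15) for ITGB1 and at chr19:14732646-14732705 for ITGB1P1, all on the minus strand of GRCh37, and is written 5′ to 3′.
ITGB1 and ITGB1P1: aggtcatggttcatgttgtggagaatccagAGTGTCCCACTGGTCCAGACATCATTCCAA
The level assigned to ITGB1P1 was 73.4, 60.6 and 80.8 TPM in shCTL, against 75.6, 39.8 and 76.4 TPM in shRor1. It was lowest in the second shRor1 library, the one in which ITGB1 was highest. The sum of both genes was 673.5, 692.0 and 694.2 TPM in shCTL, against 683.3, 798.1 and 801.4 TPM in shRor1, with a log2 difference of 0.14 (SE 0.08, limma, unadjusted p = 0.118). TPM is divided by gene length, so this sum overweights the short pseudogene: weighted by length, ITGB1P1 made up 0.85% to 2.1% of the 2 genes together.

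The leukocyte integrins were mixed in level. ITGAE, which pairs with ITGB7 on lymphocytes within epithelia and binds E-cadherin, was at 48.7, 51.6 and 56.6 TPM in shCTL, against 48.2, 59.6 and 60.2 TPM in shRor1. Its partner ITGB7 was at 1.25, 1.14 and 1.36 TPM in shCTL, against 1.23, 1.08 and 1.47 TPM in shRor1, with a log2 difference of 0.00 that turned to -0.06 with quantile normalization and to -0.04 with median ratio scaling. ITGB2, the shared beta subunit of leukocyte integrins, was at 9.54, 12.9 and 13.9 TPM in shCTL, against 12.0, 13.5 and 14.5 TPM in shRor1. ITGAL, a partner of ITGB2 on lymphocytes, was at 1.98, 1.98 and 1.51 TPM in shCTL, against 2.54, 1.33 and 2.31 TPM in shRor1. All 4 genes overlapped between the conditions. The leukocyte markers PTPRC, CD3E, CD14, SPI1 and LCP2 summed to 0.53 to 0.81 TPM in shCTL and to 0.30 to 0.99 TPM in shRor1. None of these reached the filter of the test. The 4 markers of megakaryocytes and platelets summed to 0.60 to 0.86 TPM and 0.72 to 0.97 TPM, with PPBP and GP9 at 0. The endothelial markers CDH5 and VWF summed to 0.42 to 1.66 TPM in shCTL and to 0.39 to 1.77 TPM in shRor1, and the muscle markers MYH7 and DES to 0.54 to 2.04 TPM and 0.55 to 3.23 TPM, with 1 of these 2 at 0. PECAM1, also listed as an endothelial marker, was not found by symbol and is not in these sums. The part of other cell types in the member levels was not tested.

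The laminin chains were led by LAMA5, the alpha chain of most adult basement membranes, on the minus strand at chr20:60883011-60942368. LAMA5 was at 143.1, 137.4 and 314.8 TPM in shCTL, against 199.7, 170.7 and 330.9 TPM in shRor1. The third library was the highest in both conditions, and its first and second shRor1 libraries lay above the first and second controls. The log2 difference was 0.29 (SE 0.36, 95% interval -0.54 to 1.12). LAMB2 had the same order of libraries, at 96.3, 91.0 and 169.8 TPM in shCTL, against 119.4, 117.9 and 184.1 TPM in shRor1, with a log2 difference of 0.26 (SE 0.26, 95% interval -0.35 to 0.88). Without the third library of both conditions the log2 differences were 0.39 for LAMA5 (limma, unadjusted p = 0.00903, adjusted p = 1) and 0.34 for LAMB2 (limma, unadjusted p = 0.0064, adjusted p = 1). Without the third shRor1 library alone they were 0.01 for LAMA5 and 0.05 for LAMB2, and without the third shCTL library alone 0.67 and 0.55.

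LAMB1, the beta chain found alongside LAMC1 in the most widespread laminins, was at 106.9, 104.9 and 125.0 TPM in shCTL, against 114.7, 131.2 and 145.5 TPM in shRor1. The first shRor1 library lay within the range of the controls and the other two above it, and the log2 difference was 0.21 (SE 0.11, 95% interval -0.04 to 0.47, limma, unadjusted p = 0.0893, adjusted p = 0.984). LAMC1, the gamma chain shared by these trimers, was at 80.9, 75.3 and 89.6 TPM in shCTL, against 79.1, 82.0 and 108.1 TPM in shRor1, with a log2 difference of 0.12 (SE 0.13, 95% interval -0.18 to 0.42, limma, unadjusted p = 0.388, adjusted p = 0.984). LAMA4, a chain of vascular and mesenchymal basement membranes, was at 7.28, 7.01 and 10.6 TPM in shCTL, against 6.91, 9.74 and 17.4 TPM in shRor1. For both, the first shRor1 library lay at or below the middle of the controls and the third above all of them. LAMB3 and LAMA3, chains of the laminin that anchors epithelia at hemidesmosomes, were the only 2 tested members with a difference below 0. LAMB3 was at 108.5, 72.4 and 98.6 TPM in shCTL, against 105.5, 65.6 and 99.0 TPM in shRor1, with a log2 difference of -0.06 (95% interval -0.54 to 0.43). LAMA3 was at 5.11, 6.68 and 6.88 TPM in shCTL, against 4.74, 6.03 and 7.32 TPM in shRor1, with a log2 difference of -0.05 (95% interval -0.45 to 0.36). Both overlapped between the conditions. Their signs were not stable: array weights turned LAMA3 to 0.01, and over the libraries left out in turn LAMA3 ran from -0.18 to 0.09 and LAMB3 from -0.23 to 0.15.

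The promoter sequences of ITGA2 and LAMA5 are shown because these members had, respectively, the smallest p in the full comparison and one of the 2 smallest without the third library of both conditions. They come from RefSeq on GRCh38.p14 and hold 250 bases before and 50 after the gene start, written 5′ to 3′ on the strand of the gene, at chr5:52989102-52989401 (plus) and chr20:62367263-62367562 (minus). Capitals mark GGGCGG on either strand (CCGCCC where it lies on the other one), the core of the GC box bound by Sp-family factors.
ITGA2: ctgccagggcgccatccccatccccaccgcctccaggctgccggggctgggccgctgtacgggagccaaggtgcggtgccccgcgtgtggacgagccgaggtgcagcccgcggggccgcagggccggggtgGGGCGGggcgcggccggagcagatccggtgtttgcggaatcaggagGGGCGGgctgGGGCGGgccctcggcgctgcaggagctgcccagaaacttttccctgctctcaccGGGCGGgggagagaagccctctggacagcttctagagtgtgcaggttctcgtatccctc
LAMA5: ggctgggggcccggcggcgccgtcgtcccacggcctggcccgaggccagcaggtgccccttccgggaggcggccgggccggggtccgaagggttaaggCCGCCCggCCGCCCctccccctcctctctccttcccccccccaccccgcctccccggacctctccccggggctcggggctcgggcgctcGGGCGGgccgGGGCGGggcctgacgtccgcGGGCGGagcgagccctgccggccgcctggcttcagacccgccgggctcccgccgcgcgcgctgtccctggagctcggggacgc
ITGA2 held 4 matches at a GC content of 72.7% and LAMA5 held 5 at 82.7%, against a median GC content of 58.7% over all promoters of the table. LAMB2, which had a smaller p than LAMA5 without the third library of both conditions, held 1 match at a GC content of 58.7%. A promoter was found for 25 of the 35 members. GGGCGG occurred in 14 of these 25 and in 15786 of all 35116 promoters, whereas TATAAA, searched on both strands and never overlapping GGGCGG, occurred in 1 of the 25 and in 4049 (11.5%) of all. Members with the same number of matches did not share 1 pattern of levels: LAMB1 and ITGA8 also held 4, yet ITGA8 did not exceed 0.31 TPM. A match is a description of the letters and says nothing about binding.

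The position of each member against the 3 controls was then counted for each shRor1 library. In the third shRor1 library 22 of the 24 tested members (91.7%) lay above all 3 controls and 0 below them, against 47.4% and 17.6% of all genes tested. In the second, 8 members (33.3%) lay above all controls and 3 below, against 34.1% and 22.6% of all genes. In the first, 2 members (8.33%), ITGA2 and ITGAL, lay above all controls and 6 (25.0%), namely ITGA1, ITGA5, ITGAE, ITGAV, LAMA3 and LAMA4, lay below them, against 24.4% and 16.6% of all genes. The first shRor1 library thus held fewer members above the controls than the share of all genes, and the third held more. The third library was the highest of its condition in both conditions for 18 of the 24 members (75.0%), against the 33.6% of all genes given above, and the exceptions were ITGA2, ITGA5, ITGAL, ITGAV, ITGB1 and LAMB3. Transcripts of the tested members had a median GC content of 53.9%, against 48.0% over 15066 tested genes with a canonical transcript. Across the 24 members, the excess of the third libraries over the other two and GC content had a Pearson r of 0.30 and a Spearman rho of 0.20, and across all these genes 0.19 and 0.18, all genes sharing the same 6 libraries. The part of GC content, or of the third libraries themselves, in these differences was not tested.

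**Figure D3:**
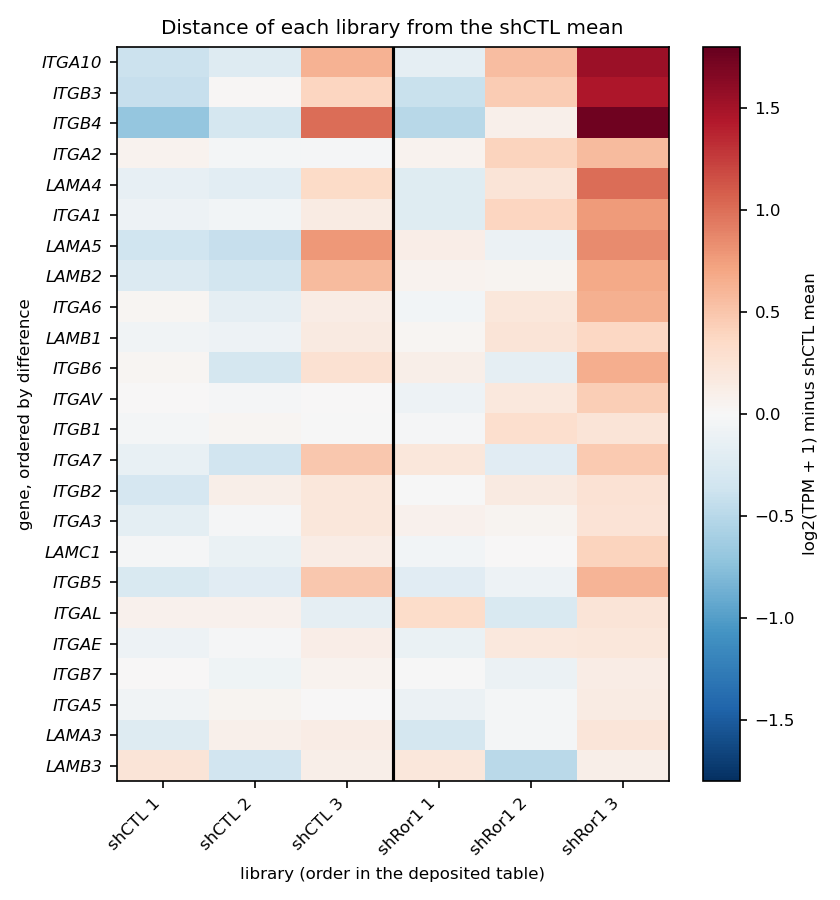
Level of each tested integrin and laminin gene in each of the 6 libraries as log2(TPM + 1) minus the mean of the 3 shCTL libraries, with red above and blue below that mean, and genes ordered by their difference between conditions. The third library is the reddest column in both conditions, and in the third shRor1 library 22 of 24 genes exceed all controls.

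Leaving out single libraries changed the counts. Without the first shRor1 library, 8 members (ITGA1, ITGA2, ITGA6, ITGA10, ITGAV, ITGB1, ITGB3 and LAMB1) had an unadjusted p under 0.05, all higher in shRor1, beside 7.73% of all 16306 genes then tested, and 8 members did not overlap, beside 21.6% of these genes. Adjusted p-values of these 8 by limma lay between 0.435 and 0.465, and 0 members were called after adjustment. Without the third shCTL library, 3 members (LAMA5, LAMB1 and LAMB2) had an unadjusted p under 0.05, beside 3.56% of all genes then tested that were higher, and 6 did not overlap, beside 18.6%. Without the second shCTL, the second shRor1 or the third shRor1 library, 0 members had an unadjusted p under 0.05. Of all genes then tested, 1.68%, 2.02% and 1.97% had such a p in either direction. Without the third library of both conditions, 22 members were tested, of which 2 (LAMA5 and LAMB2) had an unadjusted p under 0.05, beside 2.12% of the 15764 genes then tested that were higher, and 6 (ITGA2, ITGA3, ITGA10, LAMA5, LAMB1 and LAMB2) did not overlap, beside 22.4%. With all libraries and array weights, 3 members (ITGA2, ITGB1 and LAMB1) had an unadjusted p under 0.05, beside 4.28% of all genes that were higher. The median log2 difference was 0.04 for integrins and 0.01 for laminins without the third shRor1 library, against 0.03 for all genes then tested. For laminins it was 0.11 without the first and 0.08 without the second shCTL library, against 0.05 and 0.03 for all genes. The median of integrins was 0.33 without the third shCTL and 0.28 without the second shRor1 library, against 0.08 and 0.06 for all genes. The differences of several single members also moved: without the third and without the first shRor1 library they were 0.09 and 0.58 for ITGA1, 0.08 and 0.42 for ITGA6, 0.05 and 0.31 for ITGAV, 0.04 and 0.20 for ITGAE, and 0.01 and 0.61 for LAMA4. For ITGA3 the range was 0.04 without the first to 0.23 without the third shCTL library.

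Levels of partner chains were also compared within each library, where a common scaling factor cancels. The 8 alpha subunits that pair with ITGB1 and were tested (ITGA1, ITGA2, ITGA3, ITGA5, ITGA6, ITGA7, ITGA10 and ITGAV) summed to 0.831, 0.818 and 0.963 of the ITGB1 level in shCTL and to 0.893, 0.764 and 0.955 in shRor1. The means of this ratio were 0.871 ± 0.0803 and 0.871 ± 0.0974 (SD, n = 3), a difference smaller than the spread between libraries. ITGB4 stood at 0.210, 0.315 and 0.661 of ITGA6 in shCTL and at 0.256, 0.327 and 0.776 in shRor1. ITGB5 exceeded ITGAV 1.83, 1.94 and 3.10 times in shCTL and 2.04, 1.83 and 2.49 times in shRor1. LAMA5 exceeded LAMC1 1.77, 1.83 and 3.51 times in shCTL and 2.52, 2.08 and 3.06 times in shRor1. These 3 ratios were highest in the third library of both conditions. LAMB1 over LAMB2 went the other way, at 1.11, 1.15 and 0.736 in shCTL and 0.961, 1.11 and 0.790 in shRor1. ITGA2 stood at 0.0667, 0.0592 and 0.0614 of ITGB1 in shCTL and at 0.0659, 0.0671 and 0.0791 in shRor1. Each of these ratios overlapped between the conditions.

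**Figure D4:**
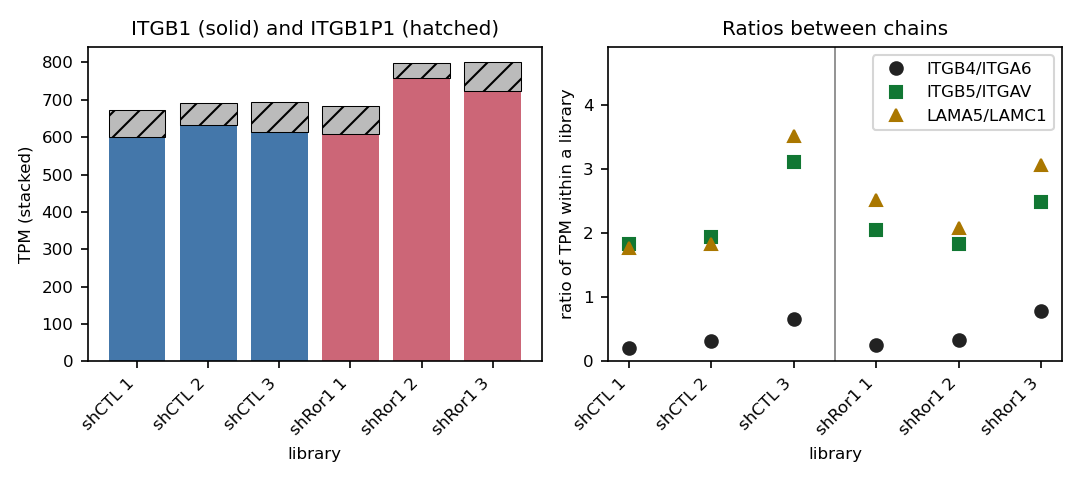
Left, bars from 0 for the TPM of ITGB1 (solid, blue in shCTL and red in shRor1) with ITGB1P1 stacked on top (hatched) in each of the 6 libraries. Right, the ratio of TPM within each library for ITGB4 over ITGA6, ITGB5 over ITGAV and LAMA5 over LAMC1, each highest in the third library of both conditions.

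The partners of integrins and laminins were taken from 6 lists with 87 genes in all, of which 70 were tested. Of these 70, 1 was higher at an unadjusted p of 0.05 and 0 were lower, beside the 2.31% and 0.544% of all genes tested, and 0 passed after adjustment. In 3 of them (ARF6, CD47 and CDH1) the shRor1 libraries all lay above the controls, beside 6.48% of all genes. The 1 gene was CD47, a membrane protein that associates with integrins, at 37.5, 39.0 and 38.4 TPM in shCTL, against 39.4, 50.1 and 51.7 TPM in shRor1. As for ITGA2, its first shRor1 library lay just above the controls and the other two well above, with a log2 difference of 0.28 (SE 0.11, limma, unadjusted p = 0.0362, adjusted p = 0.984). Among the 10 membrane partners, 6 differences lay above 0 and 4 below, with a median of 0.08, and the most abundant were BSG (687.8 to 857.6 TPM) and CD63 (531.8 to 620.0 TPM).

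The 18 tested activation and adaptor genes included those of talin, kindlin and focal adhesion kinase. Of their differences, 11 lay above 0 and 7 below with a median of 0.02. The most abundant were PXN (121.0 to 177.8 TPM) and PTK2 (121.8 to 163.3 TPM). Of 13 tested inactivation and trafficking genes, 8 lay above 0 and 5 below with a median of 0.03, led in level by FLNA (361.9 to 424.8 TPM) and RAB11A (209.8 to 256.8 TPM). The medians of both lists lay below that of all genes tested.

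Of 15 tested integrin ligands other than laminins, 9 lay above 0 and 6 below with a median of 0.07. The most abundant were the matricellular genes CCN1 (673.3 to 824.0 TPM) and CCN2 (198.2 to 258.1 TPM), with log2 differences of -0.05 each. Of 8 tested basement membrane partners, 7 lay above 0 and 1 below with a median of 0.12, led by AGRN (71.8 to 118.7 TPM) and COL4A2 (53.8 to 72.0 TPM). Of 6 laminin receptors that are not integrins, 4 lay above 0 and 2 below with a median of 0.03, led by RPSA (2181 to 2747 TPM) and SDC4 (98.4 to 117.1 TPM). RPSA also encodes a ribosomal protein, so its level is no measure of laminin binding. The medians of the integrins and laminins themselves were larger than that of each of the 6 lists, a description without a test. The 6 lists were not recomputed without the third shRor1 library, where the medians of integrins and laminins were smaller.

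**Figure D5:**
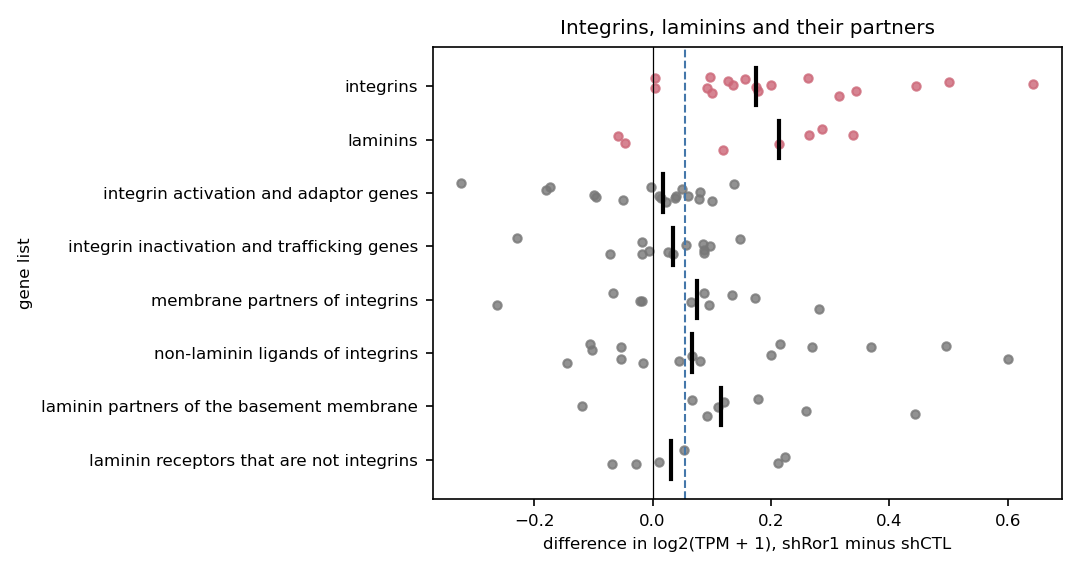
Difference in log2(TPM + 1), shRor1 minus shCTL, of every tested gene of the integrins, the laminins (both red) and the 6 partner lists (grey), 1 point per gene, with a black bar at the median of each list and a blue dashed line at the median of all genes tested. The bars of integrins (0.17) and laminins (0.21) lie to the right of the other 6, which run from 0.02 to 0.12.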

How the data were processed

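RNA of 6 MDA-MB-231 libraries (3 shCTL, 3 shRor1) was sequenced as single reads of 50 bases, from total RNA per the study's methods and polyA RNA per the labels. The authors mapped reads to GRCh37 with STAR (Ensembl 73) and used RSEM 1.2.5. The deposited values are TPM per gene and library, although the table is called expected counts: column totals are 999999 to 1000001. TPM does not hold depth, and the mapped read totals that the study gives per replicate cannot be matched to these columns. A gene taking a larger share lowers all others. Of the per-sample columns, 0 were left unused.

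The filter required 1 TPM or more in 3 or more libraries and retained 16554 of 57445 genes. A linear model with condition as the only term was fitted to log2(TPM + 1) with limma 3.58.1 in R 4.3.3 (empirical Bayes with a mean-variance trend), with Benjamini-Hochberg adjustment over all genes tested and a threshold of 0.05. It was tested on simulated data in which each gene was drawn independently. Those data held no shift shared by the genes of a library, so the test does not cover such a shift. The study's count test could not be used on TPM. Single genes also had an exact two-sided permutation test of 3 against 3 libraries, whose smallest p is 0.1. Symbols and coordinates came from GENCODE 44 on GRCh37 (55022 of 57445 identifiers matched), and older symbols from RefSeq synonyms. Exon overlaps were read on the same strand, and ITGB1P1 was aligned to ITGB1. Promoters came from RefSeq on GRCh38.p14.

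Members, lists and tests were chosen with earlier results of these data known. Values are given for each tested member in every library, full statistics for the 8 tested members with the smallest p and for ITGB1, ITGAV, ITGB5 and LAMC1, and for each partner list the 2 most abundant genes and any at an unadjusted p under 0.05. ITGB4, LAMA5, LAMB2, LAMB3, LAMA3, ITGB3, ITGA5 and ITGB7 have further statistics, and ARF6 and CDH1 are named, because of their values. Alternatives were other filters, a pseudocount of 0.1, 2 other normalizations, other variance models, other gene definitions and libraries left out.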

Additional observations from a re-analysis of the deposited data

How the results depend on the processing

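Each of 16 alternatives left 0 tested members past an adjusted p of 0.05, with a lowest adjusted p of 0.435. Of 375 member differences recomputed, 346 kept their direction and 29 turned. With quantile normalization ITGB7 was -0.058 and ITGA5 -0.0361. With median ratio scaling ITGB7 was -0.0411 and ITGA5 -0.075. Under either, 20 of the 24 members lay above 0, with a median of all genes of 0.00146 and -0.0166. Array weights gave ITGAL -0.00852, LAMA3 0.00876 and ITGB7 -0.00217, and raised the count of members at an unadjusted p under 0.05 from 1 to 3, while that of all genes went from 472 (2.85%) to 859 (5.19%). Leaving out the third library of both conditions, chosen after seeing the data, gave ITGAL -0.0533, ITGB7 -0.027 and ITGA5 -0.0622. In that fit 2 members had an unadjusted p under 0.05 by limma and 6 did not overlap, all higher in shRor1. The same held for 2.12% and 22.4% of all genes then tested. With single libraries left out the first count ran from 0 to 8 and the other from 1 to 8, and the difference ran from -0.0691 to 0.0591 for ITGA5, -0.0172 to 0.398 for ITGA7, -0.0192 to 0.283 for ITGAL, -0.0137 to 0.236 for ITGB2, -0.206 to 0.95 for ITGB4, -0.151 to 0.343 for ITGB5, -0.0282 to 0.383 for ITGB6, -0.062 to 0.062 for ITGB7, -0.176 to 0.0916 for LAMA3, -0.227 to 0.152 for LAMB3 and -0.0211 to 0.201 for LAMC1. Both counts reached 8 without the first shRor1 library, where the shares of all genes then tested that were higher were 7.73% and 21.6%. The cause of these shifts was not tested. Adding ITGB1P1 to ITGB1 was also chosen after seeing the data. No paired analysis was possible because replicate numbers are absent from the table. Summing over genes with 1 symbol was not run, as no member had more than 1 gene, nor were count-based tools, as the table holds no counts. TPM without read counts limits what can be said of members near 1 TPM, and 3 libraries per condition limit the rest.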
